A study of Mus musculus with 8 samples.

Results

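Paupar and Pax6 have neighbouring promoters on mouse chromosome 2, and a chromosome conformation assay read the contacts of both promoters in the same libraries. In such an assay crosslinked chromatin is cut and ligated, and the reads that join a chosen viewpoint to other restriction fragments are counted. The comparison here is between the Paupar viewpoint and the viewpoint at the P0 promoter of Pax6 (Pax6P0), paired within each library. It used all 8 of the 8 libraries of the series and 16 of its 40 files. There were 2 libraries of each of 4 cell types. Embryonic stem cells (ES) were grown on gelatin with serum and leukemia inhibitory factor. Neural stem cells (NSC) came from E14.5 cortex, and cortical neurons were obtained by differentiating such cells on poly-D-lysine in Neurobasal with B27. N2a is an established mouse neuroblastoma line. No library carried an added allele or agent according to the labels, which give no strain, and the labels do not say whether 2 libraries of a cell type came from separate cultures. Every p below therefore measures the spread between these libraries only.

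Paupar is a long noncoding RNA gene just upstream of Pax6, transcribed away from it, and its transcript is known to act on neural gene expression together with PAX6. Pax6 encodes a paired-box and homeodomain transcription factor needed for eye, brain and pancreas development. It has several promoters, of which P0 is the most upstream, and it is known to be controlled by enhancers spread over a long domain that includes introns of the neighbouring gene Elp4. A promoter's contacts fall steeply with distance along the chromosome in any cell, and promoters so close together share much of their surroundings.

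Each viewpoint was located as the stretch without listed fragments in its own files, which was the same in all 8 files. The Paupar viewpoint covered chr2:105660480-105662320 (1841 bases) of mm10, over the end of the Paupar gene (105657862 to 105661343) that has the higher coordinates. The Pax6P0 viewpoint covered chr2:105667489-105669388 (1900 bases) and contained the RefSeq start of Pax6 at 105668896. Their centres, 105661400 and 105668438, were 7038 bases apart. The labels do not name the restriction enzyme. The letters GATC stood at 342 of the 342 gaps between adjacent listed fragments that fell inside RefSeq promoters, against 41.9% of 32851 promoters of 250 bases that hold GATC anywhere, with the motif being its own reverse complement. The 250 bases before 3 starts of the locus are shown because they place the cutting sites at the coding promoter, at its antisense neighbour and at an internal start (RefSeq, GRCm38.p6, the assembly of mm10). Each is written along its own strand, and capitals mark GATC.
Pax6, chr2:105668646-105668895, plus strand: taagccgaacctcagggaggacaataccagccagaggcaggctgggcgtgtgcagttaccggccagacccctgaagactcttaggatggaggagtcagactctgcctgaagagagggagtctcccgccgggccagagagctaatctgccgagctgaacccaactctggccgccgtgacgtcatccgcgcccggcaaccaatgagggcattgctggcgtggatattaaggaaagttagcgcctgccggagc
Pax6 internal start, chr2:105682213-105682462, plus strand: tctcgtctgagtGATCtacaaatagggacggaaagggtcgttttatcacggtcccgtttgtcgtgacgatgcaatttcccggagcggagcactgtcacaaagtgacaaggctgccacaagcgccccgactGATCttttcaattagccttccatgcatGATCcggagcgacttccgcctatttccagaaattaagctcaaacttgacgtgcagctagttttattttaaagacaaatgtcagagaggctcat
Pax6os1, chr2:105670331-105670580, minus strand: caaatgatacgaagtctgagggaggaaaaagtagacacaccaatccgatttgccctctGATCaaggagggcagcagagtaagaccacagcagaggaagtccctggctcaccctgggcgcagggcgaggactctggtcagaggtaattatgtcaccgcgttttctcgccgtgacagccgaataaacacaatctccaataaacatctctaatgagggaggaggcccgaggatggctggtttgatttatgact
The first sequence had 0 GATC sites and lay inside the Pax6P0 viewpoint stretch. The Pax6 internal start had 3 sites and the Pax6os1 promoter 1 site.

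Reads of each file were summed by fragment midpoint in one grid of 400 windows of 5 kb, within 1000 kb of the midpoint between both centres (105664919). The 4 windows from 105654919 to 105674918 were left out, so that 396 remained and no window of the Paupar gene body itself did. Distances below run from that midpoint, negative and "upstream" meaning lower coordinates. A share is the percent of a file's chromosome 2 reads more than 5 kb from either centre. The files held 19760 to 129499 reads, of which 9925 to 68520 were such chromosome 2 reads, and NSC replicate 1 was the shallowest library from both viewpoints. In the 235 windows with enough reads to test, a file had a median of 40 reads per window. Each library pools many cells, so contact in fewer cells and weaker contact in each cell cannot be told apart.

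The regions that preferred one promoter over the other lay next to the viewpoints, each on the side of the promoter it was nearer to. Over all 8 pairs, edgeR's quasi-likelihood test with the library as a block called 5 of 235 windows at an adjusted p under 0.05 (2.13%), 3 of them with higher Paupar shares (1.28%) and 2 with lower ones (0.851%). The 3 windows with higher Paupar shares adjoined one another from -25 to -10 kb (chr2:105639919-105654918), in the body of Pax6os1, a long noncoding RNA gene transcribed opposite to Pax6. The 2 with lower Paupar shares lay from 10 to 15 kb and from 20 to 25 kb (chr2:105674919-105679918 and chr2:105684919-105689918), both inside Pax6. All 5 lay within 25 kb, where 6 windows were tested. Beyond 25 kb edgeR called 0 of 229, and 14 of these had an unadjusted p under 0.05 (6.11%), against 20 of all 235 windows (8.51%). DESeq2 called there the window from -570 to -565 kb, described below.

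In the Pax6os1 window from -15 to -10 kb, Paupar shares ran from a lowest 2.74% through a median of 3.09% to a highest 5.04%, against 0.906%, 1.91% and 2.25% from Pax6P0. The groups did not overlap, and Paupar was higher in 8 of 8 libraries. Its share was 2.11-fold that of Pax6P0 (log2 1.08, SE 0.13, edgeR adjusted p = 2.3e-07). In the shallowest library, NSC replicate 1, this rested on 299 reads from Paupar, a share of 3.01% with a 95% Wilson interval of 2.69% to 3.37%, against 133 reads from Pax6P0, 1.23% with an interval of 1.04% to 1.46%. Such intervals leave out the spread between libraries and treat every listed read as independent. No molecular identifiers are described, several reads may come from 1 molecule, and a read may be counted in several fragments. The intervals can thus be too narrow even for counting error.

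The next Pax6os1 window, from -20 to -15 kb, had Paupar shares of 1.40% at the lowest, 2.02% at the median and 2.85% at the highest, against 0.585%, 1.10% and 1.42% from Pax6P0. Here the lowest Paupar library fell just under the highest Pax6P0 library, but within each library Paupar was higher, in 8 of 8. The ratio was 1.90-fold (log2 0.92, SE 0.15, edgeR adjusted p = 1.9e-05). From -25 to -20 kb the Paupar shares were 1.12%, 1.38% and 1.58%, against 0.562%, 0.743% and 0.825% from Pax6P0. These groups did not overlap, with Paupar higher in 8 of 8 libraries (1.89-fold, log2 0.92, SE 0.16, edgeR adjusted p = 9.9e-05).

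On the Pax6 side, the window from 10 to 15 kb had Paupar shares of 0.874% at the lowest, 1.10% at the median and 1.71% at the highest, against 1.55%, 2.19% and 2.85% from Pax6P0. The groups overlapped through ES replicate 1 alone among the Paupar files, and Paupar was lower in 8 of 8 libraries (log2 -0.92, SE 0.14, edgeR adjusted p = 1.9e-05), which makes the Pax6P0 share 1.89-fold the Paupar share. In the window from 20 to 25 kb, Paupar shares were 0.292%, 0.763% and 0.895%, against 0.659%, 1.19% and 1.88% from Pax6P0. The groups overlapped, and Paupar was lower in 6 of 8 libraries, the exceptions being both N2a libraries, with 0.895% and 0.717% from Paupar against 0.831% and 0.659% from Pax6P0. The log2 ratio of this window was -0.83 (SE 0.20, edgeR adjusted p = 0.0096). That call was lost without ES replicate 1 (adjusted p = 0.0836), without NSC replicate 1 (0.107) or without neuron replicate 2 (0.0917), whereas the other 4 calls held without any single library.

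**Figure D1:**
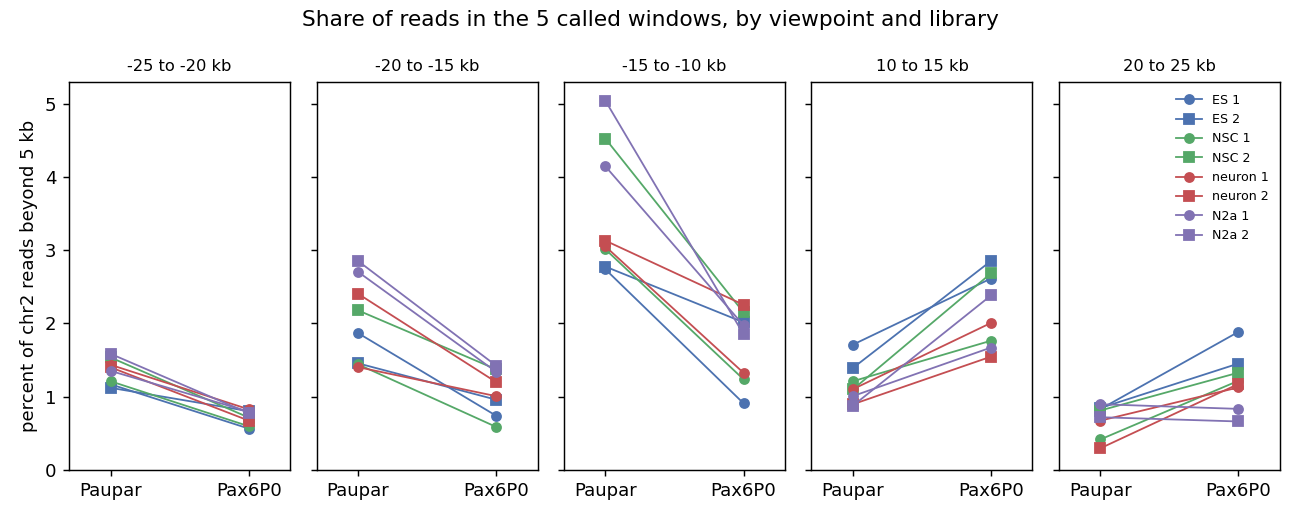
Share of chromosome 2 reads beyond 5 kb (vertical axis, percent) in the 5 called windows, from the Paupar viewpoint (left in each panel) and the Pax6P0 viewpoint (right). Each line is 1 library, coloured by cell type, with circles for replicate 1 and squares for replicate 2. Lines fall from Paupar to Pax6P0 in all 8 libraries in the 3 upstream windows and climb in 8 of 8 and 6 of 8 libraries in the 2 downstream ones.

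Between the 2 called Pax6 windows, the window from 15 to 20 kb holds the internal start of Pax6 printed above. It is described after its values were seen. Its Paupar shares were 0.771% at the lowest, 1.22% at the median and 1.51% at the highest, against 1.24%, 1.66% and 2.36% from Pax6P0. The groups overlapped over part of their ranges, with Paupar lower in 7 of 8 libraries, and the window did not pass the test (log2 -0.46, SE 0.16, edgeR adjusted p = 0.191).

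A window near one viewpoint is also several kb nearer to it than to the other, so the same ratios were set against the fall of reads with distance. Over both viewpoints the log share fell on the log distance with a slope of -0.924. The window from -15 to -10 kb was centred 8.98 kb from Paupar and 16.02 kb from Pax6P0, and the slope alone gives a log2 ratio of 0.77 there. It gives 0.54 and 0.42 for the other Pax6os1 windows, and -0.77 and -0.42 for the called Pax6 windows from 10 to 15 kb and from 20 to 25 kb. With this ratio as an offset, edgeR called none of the 235 windows (0), the smallest adjusted p being 0.448 and 12 having an unadjusted p under 0.05. The log2 ratios left over were 0.31, 0.38 and 0.50 for the Pax6os1 windows from the nearest to the farthest, and -0.15 and -0.41 for the Pax6 windows. All 5 kept their sign, but they had been called for ratios in that direction, so the kept sign is no separate test. From 25 to 50 kb the median ratio left over was 0.01 upstream and -0.17 downstream. At the internal start of Pax6 the leftover ratio was 0.08.

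**Figure D2:**
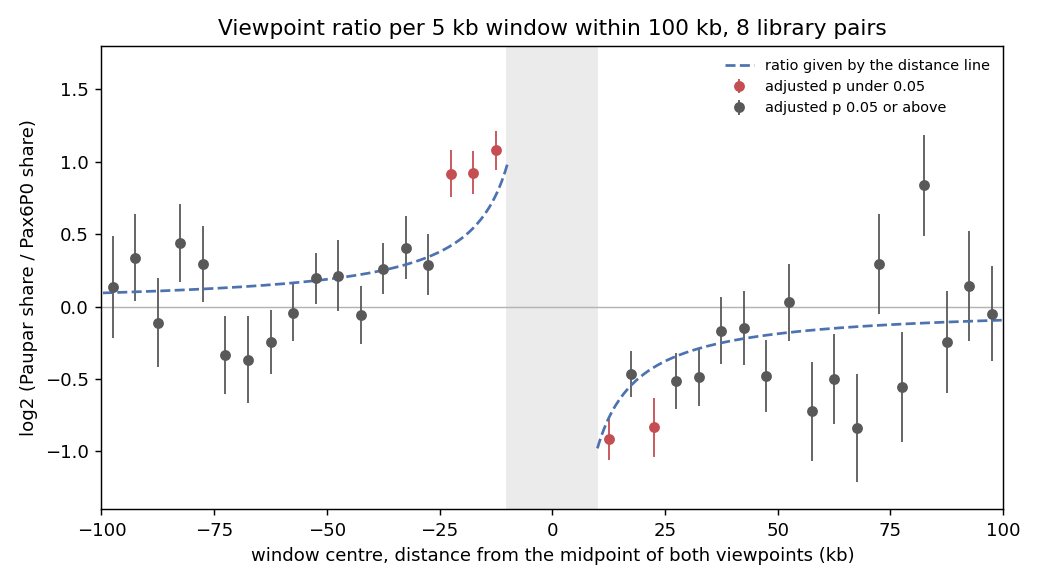
Log2 ratio of the Paupar share to the Pax6P0 share (vertical axis) for tested 5 kb windows within 100 kb, by distance of the window centre from the midpoint of both viewpoints (horizontal axis, kb). Bars are standard errors of the edgeR fit over 8 pairs, red points passed an adjusted p of 0.05, the grey block was left out, and the dashed line is the ratio that the slope of -0.924 gives. The 3 red points upstream lie above the line and the 2 downstream below it, and none of the 5 passed with the line as an offset. They were called for ratios in these directions, so their side of the line is no separate test.

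Because neighbouring fragments often carry the same reads, the reads were also reduced. They were reduced to the fewest that could give the listed runs of fragments, which left 169 windows with enough reads to test. Of these 169, edgeR called 4, all among the main 5, the window from 20 to 25 kb being the one lost. Whether a fragment was listed at all could not show a preference so close to the viewpoints. In the 5 called windows a file listed 8 to 16 fragments, and 16, 15, 15, 15 and 14 of the 16 files listed as many as any other file, the windows being taken in the order 10 to 15 kb, -15 to -10 kb, -20 to -15 kb, -25 to -20 kb and 20 to 25 kb. The files that listed fewer were those of NSC replicate 1, the shallowest library.

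Beyond 25 kb, the edgeR fit of 5 kb windows over all 8 pairs called 0 windows. Calls there without neuron replicate 1, and in wider windows of N2a, are given further on. From 25 to 50 kb, 4 of 5 upstream windows had a positive log2 ratio and 5 of 5 downstream windows a negative one, with medians of 0.26 and -0.48. From 50 to 100 kb the medians were 0.05 upstream and -0.15 downstream, with 5 of 10 and 4 of 10 windows positive. From 200 to 500 kb they were 0.00 and 0.09. The standard errors grew over the same range, with a median of 0.153 within 25 kb and 0.440 beyond it. In counts simulated from these files, the same edgeR model recovered 36 of 70 windows given a 2-fold change, 63 of 65 given a 4-fold change, 62 of 65 given an 8-fold change, and called 0 of 35 left unchanged. A 2-fold preference was thus often not detectable at this depth. Of the 235 simulated windows only 35 were left unchanged, which makes the adjustment for many tests milder than in the files. All simulated windows also had the same dispersion. Recovery in the files can therefore be lower than these counts, also for 4-fold and 8-fold changes.

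**Figure D3:**
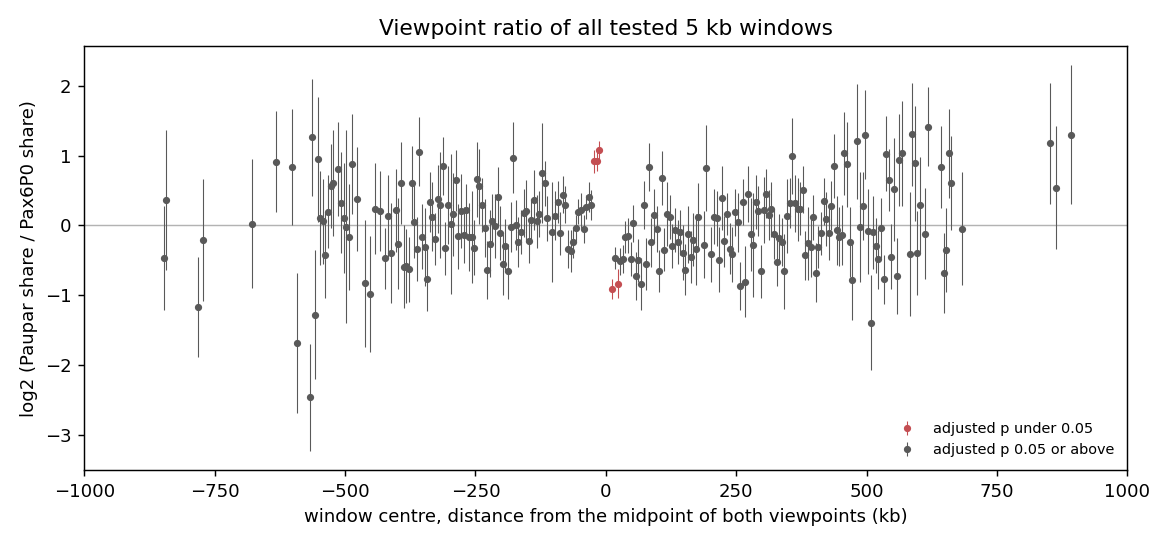
Log2 ratio of the Paupar share to the Pax6P0 share (vertical axis) for all 235 tested 5 kb windows, by distance of the window centre from the midpoint of both viewpoints (horizontal axis, kb). Bars are standard errors over 8 pairs, and the 5 red points that passed an adjusted p of 0.05 all lie within 25 kb.

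The smallest p beyond 25 kb belonged to the window from -570 to -565 kb (chr2:105094919-105099918) in Wt1os, a noncoding RNA gene next to Wt1, and it is described after its values were seen. Paupar files had 1 to 24 reads there and shares of 0.0021% at the lowest, 0.0163% at the median and 0.0738% at the highest, against 6 to 140 reads and 0.0189%, 0.0944% and 0.355% from Pax6P0. The groups overlapped, and Paupar was lower in 7 of 8 libraries, neuron replicate 1 being the exception. The log2 ratio was -2.47 (SE 0.77), short of the threshold with edgeR (adjusted p = 0.106) but past it with DESeq2 (adjusted p = 0.0042). Without neuron replicate 1 the edgeR adjusted p was 0.0215. In N2a replicate 2 the reads were 2 from Paupar against 140 from Pax6P0. The Wt1os gene as a whole, in 11 windows, had 0.478% ± 0.163 from Paupar and 0.586% ± 0.321 from Pax6P0 (SD, n = 8 each, exact permutation adjusted p = 0.751).

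Distance bands sum the same windows and so hold more reads each. The bands from 10 to 50 kb contain the 5 called windows, so their result is not separate from those calls. The called bands lay next to the viewpoints. Each band's log2 ratio was tested by flipping its sign over the 8 libraries in every way, an exact two-sided permutation test whose smallest p is 0.0078, adjusted over 10 bands. This called 2 of 10 bands (20.0%), both from 10 to 50 kb, and 3 bands had an unadjusted p under 0.05 (30.0%). Upstream, Paupar shares were 8.63% at the lowest, 10.7% at the median and 13.8% at the highest, against 4.73%, 6.95% and 9.45% from Pax6P0. The ranges overlapped, but Paupar was higher in 8 of 8 libraries (log2 0.63 ± 0.23, SD, n = 8, exact permutation adjusted p = 0.039). Downstream, Paupar shares were 4.12%, 5.44% and 6.56%, against 6.70%, 8.13% and 9.67% from Pax6P0. These groups did not overlap, with Paupar lower in 8 of 8 libraries (log2 -0.59 ± 0.19, SD, n = 8, exact permutation adjusted p = 0.039).

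Divided by the ratio that distance gives, the upstream band was at 0.17 and the downstream band stood at -0.13, both with an exact permutation adjusted p of 0.215 over 8 libraries. With the fewest reads per run, the bands were 0.41 and -0.58, and neither passed (exact permutation adjusted p = 0.0781 for both, n = 8).

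In the other 8 bands no ratio passed the exact test. From 500 to 1000 kb downstream, where Dcdc5 ends and several noncoding RNA genes lie, Paupar had 4.29% ± 1.46 and Pax6P0 3.86% ± 1.17 (SD, n = 8 each). Paupar was higher in 7 of 8 libraries there, the exception being N2a replicate 2 with a log2 ratio of -0.01 (log2 0.14 ± 0.13, exact permutation p = 0.0234, adjusted p = 0.0781). An edgeR fit over the band sums gave this band an adjusted p of 0.0192, and the ratio that distance gives does not lower it (0.16 after division). On the upstream side from 500 to 1000 kb, Paupar had 2.80% ± 0.751 and Pax6P0 3.18% ± 0.829 (SD, n = 8 each), with Paupar lower in 6 of 8 libraries (log2 -0.19 ± 0.29, exact permutation adjusted p = 0.156).

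**Figure D4:**
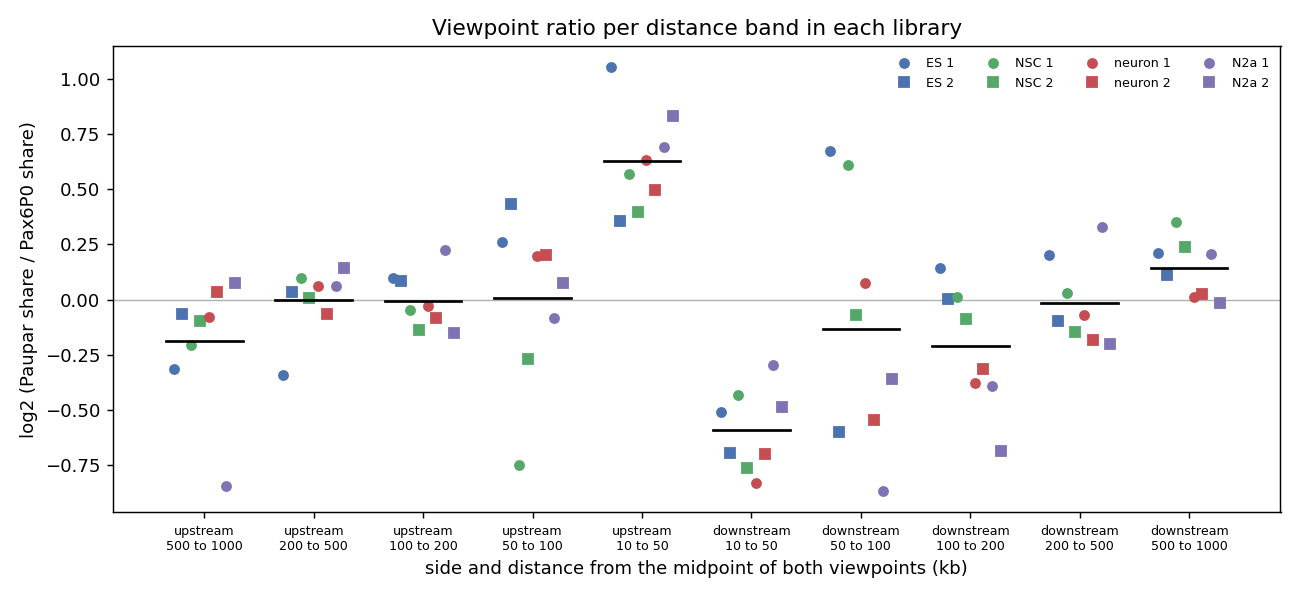
Log2 ratio of the Paupar share to the Pax6P0 share (vertical axis) in 10 distance bands, ordered along the chromosome (horizontal axis, kb from the midpoint of both viewpoints). Points are the 8 libraries, coloured by cell type with circles for replicate 1 and squares for replicate 2, and black lines are means. The upstream band from 10 to 50 kb lies above 0 and the downstream one below 0 in all 8 libraries, while the other bands lie on both sides of 0.

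Genes were compared by the reads of all windows that overlap them. Of the genes in range, 31 had at least 20 reads per file on average and were tested, and the exact test called 0 of 31 (0.0%), with 4 at an unadjusted p under 0.05 (12.9%). In 3 of the 31 (9.68%) the ratio had the same sign in all 8 libraries: Pax6, Pax6os1 and Gm46755. With 31 genes, the smallest p of 0.0078 in these 3 adjusts to 0.0807, so the exact test could have called only a larger group of such genes.

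Pax6 itself, in 5 windows from 10 to 35 kb, had Paupar shares of 2.88% at the lowest, 4.03% at the median and 5.34% at the highest, against 5.18%, 6.37% and 8.54% from Pax6P0. The ranges overlapped slightly, with Paupar lower in 8 of 8 libraries (log2 -0.67 ± 0.25, SD, n = 8, exact permutation adjusted p = 0.0807), and an edgeR fit over the gene sums called it (adjusted p = 1.6e-08). Pax6os1, in 24 windows, had Paupar shares of 14.51%, 16.01% and 18.8%, against 10.0%, 11.6% and 16.8% from Pax6P0. These ranges overlapped, but Paupar was higher in 8 of 8 libraries (log2 0.41 ± 0.22, SD, n = 8, exact permutation adjusted p = 0.0807, edgeR over the sums 5.8e-05). After division by the ratio that distance gives, Pax6 stood at -0.14 and Pax6os1 at 0.08. The Paupar gene had no window outside the stretch left out.

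Gm46755, a noncoding RNA gene by RefSeq that overlaps the end of Dcdc5 far downstream (chr2:106372228-106429230), had Paupar shares of 0.0905% at the lowest, 0.239% at the median and 0.413% at the highest, against 0.0614%, 0.146% and 0.226% from Pax6P0. Paupar was higher in 8 of 8 libraries although the ranges overlapped (log2 0.73 ± 0.44, SD, n = 8, exact permutation adjusted p = 0.0807). Its mean was 76.9 reads per file, and edgeR over the gene sums gave an adjusted p of 0.200. Distance to either viewpoint is almost equal there, and the ratio after division was 0.74. Gm36036, another RefSeq noncoding RNA gene that overlaps Gm46755, shares windows with it and had 0.127% ± 0.0847 from Paupar and 0.0649% ± 0.0348 from Pax6P0 (SD, n = 8 each). Paupar was higher there in 7 of 8 libraries (log2 0.97 ± 0.78, exact permutation adjusted p = 0.182), on a mean of 33.4 reads per file. Gm46755 and Gm36036 are both described after their values were seen.

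The protein-coding neighbours on the Pax6 side showed no called preference. Elp4, a subunit gene of the Elongator complex whose introns hold known Pax6 enhancers, had Paupar shares of 6.84% at the lowest, 8.37% at the median and 10.7% at the highest, against 7.73%, 10.1% and 11.5% from Pax6P0. The ranges overlapped, with Paupar lower in 6 of 8 libraries (log2 -0.20 ± 0.29, SD, n = 8, exact permutation adjusted p = 0.484). After division by the ratio that distance gives, Elp4 stood at -0.07 (exact permutation adjusted p = 0.958). Its first window is shared with Pax6. Immp1l, which encodes a mitochondrial inner membrane peptidase subunit, had 2.16% ± 0.312 from Paupar and 2.33% ± 0.623 from Pax6P0 (SD, n = 8 each, log2 -0.08). Dnajc24, a diphthamide synthesis gene, had 1.46% ± 0.401 from Paupar and 1.59% ± 0.534 from Pax6P0 (SD, n = 8 each, log2 -0.10). Dcdc5, a doublecortin domain gene, had 5.13% ± 1.40 from Paupar and 4.76% ± 1.58 from Pax6P0 (SD, n = 8 each, log2 0.14). Their exact permutation adjusted p values were 0.916 for Immp1l and Dnajc24 and 0.751 for Dcdc5.

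Upstream of Pax6os1 the means of both viewpoints were close. The noncoding gene 4930527A07Rik, which partly overlaps Pax6os1, had 3.03% ± 0.893 from Paupar and 3.01% ± 0.933 from Pax6P0 (SD, n = 8 each, log2 0.02). Rcn1, a calcium-binding protein gene of the endoplasmic reticulum, had 0.450% ± 0.100 from Paupar and 0.435% ± 0.104 from Pax6P0 (SD, n = 8 each, log2 0.05). Wt1, which encodes a zinc finger transcription factor needed for kidneys and gonads, had 0.603% ± 0.271 from Paupar and 0.675% ± 0.356 from Pax6P0 (SD, n = 8 each, log2 -0.02). Between libraries the Wt1 ratio spread with an SD of 0.75, and the exact permutation adjusted p was 0.969 for Wt1 and 0.942 for Rcn1 and 4930527A07Rik.

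Within single cell types, 2 pairs each, edgeR called 0 of 235 windows in any cell type (0.0% in each). At an unadjusted p under 0.05 there were 36 windows in N2a (15.3%), 13 in ES (5.53%), 15 in NSC (6.38%) and 12 in neurons (5.11%). DESeq2 called 11 windows in N2a, 2 in ES, 5 in NSC and 4 in neurons. Leaving out N2a replicate 1 or N2a replicate 2 raised the edgeR count in N2a to 6 and 5, with the lone library then assumed to vary like the others. The window from -15 to -10 kb had log2 ratios of 1.26 in N2a, 1.03 in ES, 1.18 in NSC and 0.84 in neurons. The window from 10 to 15 kb had -1.09 in N2a, -0.82 in ES, -0.93 in NSC and -0.83 in neurons. Both thus pointed the same way in each cell type, with standard errors of 0.277 to 0.289 in each.

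With wider windows, looked at after their values were seen, more reads stood behind each test within a cell type. Over all pairs, edgeR called 2.34% of 10 kb windows and 2.04% of 20 kb windows, all of them within 40 kb. In 10 kb windows the stretch from -20 to -10 kb in Pax6os1 was called by edgeR in ES (log2 1.00, adjusted p = 0.0262), NSC (1.11, 0.0082) and N2a (1.16, 0.0044). In 20 kb windows the stretch from 20 to 40 kb, over the end of Pax6 and the start of Elp4, was called lower from Paupar in ES (log2 -0.57, edgeR adjusted p = 0.0377) and neurons (-0.82, 2.4e-04), where 2.04% of windows were called in each. The other called window in both was from -40 to -20 kb in Pax6os1, higher from Paupar in ES (log2 0.56, edgeR adjusted p = 0.0377) and neurons (0.60, 0.0096). In N2a 4.08% of windows were called. Of these 4 N2a windows, 2 inside Elp4 were called lower from Paupar, from 60 to 80 kb (log2 -1.48, edgeR adjusted p = 0.0051) and from 140 to 160 kb (-1.35, 0.0177). Of the other two, one lay in Dcdc5 from 500 to 520 kb and was lower from Paupar (log2 -1.51, edgeR adjusted p = 0.0467), and one lay over Wt1os and Wt1 from -540 to -520 kb and was higher from Paupar (log2 1.81, edgeR adjusted p = 0.0467). In 10 kb windows N2a also had a call at -250 to -240 kb, outside any listed gene and higher from Paupar (log2 2.67, edgeR adjusted p = 0.0495). No window beyond 40 kb was called in the other cell types at these sizes, and none of these N2a windows was called in the edgeR test of equal ratios among the 4 cell types.

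Whether the ratio itself differed among the 4 cell types was tested separately. An edgeR test of equal ratios called 0 of 235 windows (0.0%), and an unadjusted p under 0.05 was reached by 12 (5.11%), and DESeq2 also called 0, with 28 unadjusted. Without N2a replicate 2 the edgeR count was 3. For the Pax6 window from 20 to 25 kb the log2 ratio was 0.11 in N2a, against -0.99 in ES, -1.11 in NSC and -1.36 in neurons. This difference did not pass (edgeR adjusted p = 0.745).

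In 20 kb windows, edgeR called 1 of 98 windows as different among cell types (1.02%), from -60 to -40 kb (chr2:105604919-105624918, adjusted p = 0.0170). It covers Gm35946, a noncoding RNA gene inside Pax6os1. The log2 ratio was -0.50 in NSC, against 0.44 in ES, 0.16 in neurons and 0.18 in N2a. NSC libraries had shares of 2.52% and 4.34% from Paupar against 4.03% and 5.47% from Pax6P0, and were the only cell type with Paupar lower in both libraries. The first value of each pair is from NSC replicate 1, the shallowest library. The fit of 20 kb windows was not repeated without single libraries. ES libraries had 3.39% and 3.71% from Paupar against 2.42% and 2.83% from Pax6P0. The call was not made with 5 kb windows.

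The exact permutation of cell type labels over the 8 ratios, with 2520 arrangements and a smallest p of 0.0095, called 0 of 10 bands and 0 of 31 genes as different among cell types. The band from 50 to 100 kb upstream, which contains part of that 20 kb window, reached the smallest p (adjusted p = 0.0952). Its log2 ratios were 0.26 and 0.44 in ES and -0.75 and -0.27 in NSC. Neurons had 0.20 and 0.20, and N2a cells had -0.08 and 0.07. Paupar was thus lower in both NSC libraries and higher in both ES and both neuron libraries. Gm35946, which shares reads with that 20 kb window, also reached the smallest p (exact permutation adjusted p = 0.148). Its log2 ratios were 0.48 and 0.61 in ES and -0.79 and -0.19 in NSC. Gm14015, a noncoding RNA gene far downstream, had the same adjusted p by this test. Its log2 ratios were 0.98 and 0.35 in neurons, -1.02 and -0.60 in N2a, -0.12 and 0.07 in ES, and 0.17 and 0.30 in NSC. Both genes are described after their values were seen.

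Downstream, the band from 100 to 200 kb, which lies within Elp4, had log2 ratios of -0.38 and -0.31 in neurons and -0.39 and -0.69 in N2a, against 0.14 and 0.00 in ES and 0.01 and -0.09 in NSC. The exact permutation p for a difference among cell types was 0.0190 (adjusted p = 0.0952, n = 8). For the whole of Elp4 the log2 ratios were 0.28 and -0.22 in ES and 0.17 and -0.16 in NSC. They were -0.36 and -0.32 in neurons, and -0.52 and -0.50 in N2a cells. None of these ratios is divided by the ratio that distance gives. After that division the Elp4 mean over 8 libraries was -0.07, against -0.20 before. Both neuron and both N2a libraries had less Paupar than Pax6P0 contact with Elp4, and the ES and NSC libraries lay on both sides of 0. That difference did not pass (exact permutation p = 0.162, adjusted p = 1 over 31 genes).

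About the same share of each viewpoint's chromosome 2 reads stayed near the locus. The share of reads within 1000 kb was 54.9% ± 4.44 from Paupar and 54.9% ± 5.85 from Pax6P0 (SD, n = 8 each), higher from Paupar in 4 of 8 libraries. The paired difference was -0.06 ± 2.30 percentage points (exact permutation p = 0.961, n = 8). A second base took all reads of a file except the chromosome 2 reads within 5 kb of either centre. The share within 1000 kb was then 33.8% from Paupar and 31.2% from Pax6P0, higher from Paupar in 8 of 8 libraries (difference 2.61 points, exact permutation p = 0.0078). Chromosome 2 held 63.8% ± 6.96 of all reads from Paupar and 60.0% ± 6.85 from Pax6P0 (SD, n = 8 each), higher from Paupar in 8 of 8 libraries (exact permutation adjusted p = 0.0117 over 6 such measures).

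The reads of Paupar lay more to the upstream side than those of Pax6P0. Of the reads within 1000 kb, Paupar had 49.6% at the lowest, 54.3% at the median and 57.3% at the highest on the upstream side, against 39.5%, 46.7% and 50.4% from Pax6P0. Paupar was higher in 8 of 8 libraries, by 7.85 ± 3.72 percentage points (SD, n = 8, exact permutation adjusted p = 0.0117). The sides were split at the midpoint between both centres, so the upstream side was nearer to Paupar and the downstream side nearer to Pax6P0. The part of distance in this difference was not tested. With the fewest reads per run the difference was 4.05 ± 4.52 points, with Paupar higher in 6 of 8 libraries (exact permutation p = 0.0313, n = 8). With fragments counted once it was 0.50 points, higher in 5 of 8 libraries (exact permutation p = 0.281, n = 8). Reads within 5 kb of either centre made up 9.71% ± 1.06 of chromosome 2 reads from Paupar and 13.2% ± 1.65 from Pax6P0 (SD, n = 8 each), lower from Paupar in 8 of 8 libraries (exact permutation adjusted p = 0.0117). No file listed fragments in its own viewpoint stretch. Over the other stretch, Paupar files listed 5 fragments and Pax6P0 files 9, and the part of this in the difference was not tested. The slope of the log share on the log distance was -0.938 ± 0.0819 from Paupar and -0.897 ± 0.0458 from Pax6P0 (SD, n = 8 each), steeper from Paupar in 7 of 8 libraries (exact permutation adjusted p = 0.0563).

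Reads joined the viewpoint stretches to each other, but they were not equal in both directions. Whether they exceeded what so short a distance gives was not tested. Read from Paupar, the Pax6P0 stretch with its 5 listed fragments held reads equal to 0.993% of the other chromosome 2 reads at the lowest, 1.72% at the median and 2.12% at the highest. Read from Pax6P0, the Paupar stretch with its 9 listed fragments held 1.84%, 2.30% and 4.38%. The value from Paupar was lower in 8 of 8 libraries (log2 -0.70 ± 0.34, SD, n = 8, exact permutation adjusted p = 0.0117), and the part of fragment number in this difference was not tested. Cell types did not differ in this ratio by the exact permutation test (p = 0.829, adjusted p = 0.829, n = 8).

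**Figure D5:**
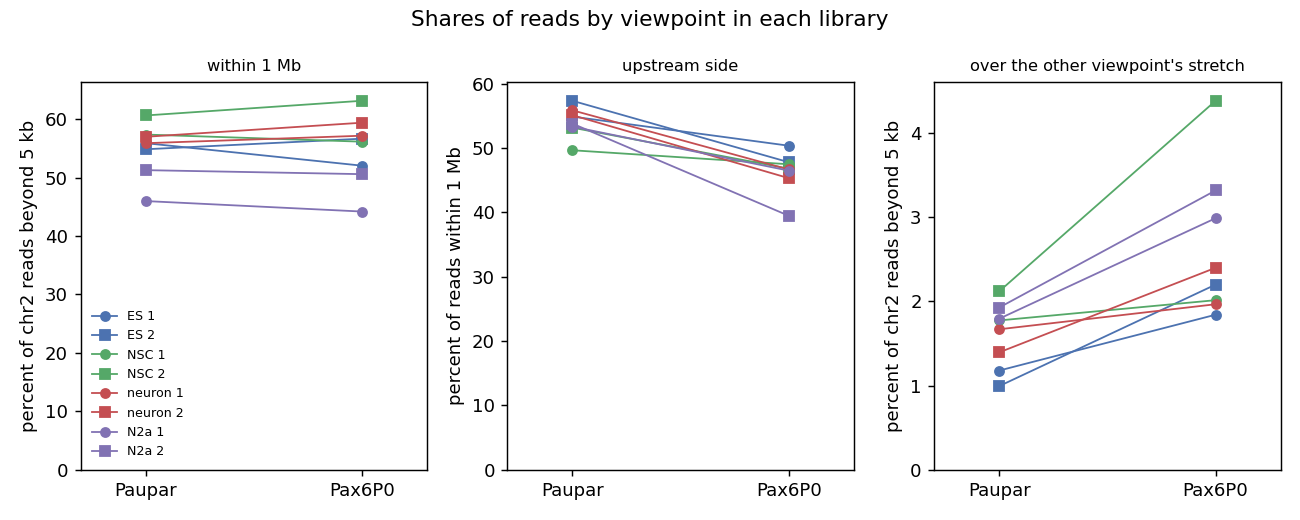
Shares of reads by viewpoint in each library, with Paupar on the left and Pax6P0 on the right of each panel. The panels show the percent of chromosome 2 reads beyond 5 kb that lie within 1000 kb, the percent of those that lie upstream, and the reads over the stretch of the other viewpoint as a percent of chromosome 2 reads beyond 5 kb. Lines are libraries, coloured by cell type, and all 8 fall in the upstream panel and all 8 climb in the last one.

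The authors' deposited table gives a q value per fragment and file. At a q under 0.05, a library had 12 to 45 fragments within 1000 kb from Paupar, where its files listed 1463 to 2855. From Pax6P0 it had 8 to 31 such fragments, where its files listed 1463 to 2675. From the authors' deposited table, 0 to 17 of these fragments were the same from both viewpoints in a library, which was 0% to 37.8% of the Paupar fragments and 0% to 54.8% of the Pax6P0 fragments. The part of read depth in this overlap was not tested. Beyond 50 kb there were 2 to 8 such fragments per library from Paupar and 1 to 10 from Pax6P0 in the authors' deposited table, and inside Elp4 0 to 2 from Paupar and 0 to 3 from Pax6P0. The fragments listed beyond 50 kb or inside Elp4 were not counted. These counts therefore do not show whether either region was rich or poor in such fragments.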

How the data were processed

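Contacts of the Paupar and Pax6P0 viewpoints were measured in 8 mouse libraries, 2 per cell type. The submitters' processing notes name Trim Galore, Bowtie and the build mm10. Versions, enzyme, fragment assignment, duplicate removal and the caller of interactions are not stated there or in the labels. Per fragment, the deposited tables give counts of reads, with no normalization, and the authors' p and q columns, of which the q-values deposited by the authors were used only to describe fragments. Listed reads were 1.73 to 2.81 times the smallest number able to produce their runs of adjacent fragments, so a read may be counted in several fragments.

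Counts were summed in windows by fragment midpoint, and library size was the file's chromosome 2 total beyond 5 kb of either centre, with no scaling factor. Windows passing edgeR's filterByExpr (minimum count 10) were tested with edgeR 4.0.16 (quasi-likelihood, robust, library as a block, R 4.3.3), adjusted by Benjamini and Hochberg over windows, threshold 0.05. The common dispersion was 0.290, a coefficient of variation of 53.8%. Within-cell-type ratios and their difference came from 1 fit with a viewpoint coefficient per cell type. Bands, genes (windows overlapping the gene, a mean of at least 20 reads) and shares were tested by exact sign-flip permutation over libraries, with 0.5 reads added before log2, and cell types by exact permutation of their labels. The pairing comes from the library itself. After removal of cell type and viewpoint means, window deviations of the Paupar and Pax6P0 files of 1 library correlated at -0.03 to 0.16 by cell type. The edgeR script was tested on simulated data.

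The text names called windows (up to 8 per direction by p), genes past the threshold, and Paupar, Pax6, Pax6os1, Elp4, Immp1l, Dnajc24, Dcdc5, Rcn1, Wt1 and 4930527A07Rik whatever their test. No gene passed the exact test. Gm46755, Gm36036, Gm35946, Gm14015 and Wt1os are outside this list and were described after their values were seen. The comparison and lists were chosen with earlier results of these data known. Gene positions are those of RefSeq's GRCm38.p6 table. Alternatives were other window sizes, library sizes, filters, stretches left out, ways of counting reads, DESeq2 1.42.0, a distance offset, blocks and leaving out each library. Where all reads of a file served as library size, chromosome 2 reads within 5 kb of either centre were still left out. The third Pax6 viewpoint and viewpoints on other chromosomes were not used here. No alternative was added later.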

Additional observations from a re-analysis of the deposited data

Results flagged for a closer look

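Among 34 ratios and differences looked at over the 8 libraries, 4 had 1 library far from the other 7 by Dixon's test, where chance gives about 1 in 20. For the band from 200 to 500 kb upstream, ES replicate 1 had a log2 ratio of Paupar to Pax6P0 of -0.34, the nearest library being at -0.07. For the band from 500 to 1000 kb upstream, N2a replicate 1 stood at -0.84, the nearest at -0.32. For Wt1, N2a replicate 1 stood at 1.65, the nearest at 0.32. For the percent of chromosome 2 reads within 5 kb of either centre, the difference of Paupar minus Pax6P0 was -1.10 points in NSC replicate 1, the shallowest library, the nearest being at -3.15.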

How the results depend on the processing

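Over all 8 pairs the count of 5 called windows was 2 with 20 kb windows, 3 with 10 kb around each centre left out, 0 with fragments counted once and 0 with the distance offset. The smaller counts with wider windows or more left out follow from fewer windows near the viewpoints. Counting fragments once says nothing about the called windows, where nearly every file listed the same fragments, so their values are set by the listing and the library sizes. It was within 1.5 times of 5 in 19 of 23 alternatives, and 4 to 6 without single libraries. TMM factors, DESeq2 size factors and no filter on low counts each called the same 5 windows. Replicate numbers did not pair the cell types (6 correlations of window deviations from -0.10 to 0.15). With the replicate block added the count was 5, and with no library block (no replicate block) it was 5 as well, all shared with the main 5. Taking all reads of a file as library size moved the median log2 ratio of windows by 0.12 and counting fragments once moved it to -0.25.

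Within cell types, where the main counts were 0, 10 kb windows gave 1 in ES, 1 in NSC and 2 in N2a, and 20 kb windows gave 4 in N2a, 2 in ES, 2 in neurons and 1 for the difference among cell types. DESeq2 called 11 in N2a, 2 in ES, 5 in NSC and 4 in neurons. Without the filter on low counts there was 1 in ES, 1 in NSC and 5 in N2a. N2a had 1 with TMM factors, 1 with DESeq2 size factors and 1 with no library block. Without single libraries the count ranged from 0 to 1 in NSC, from 0 to 6 in N2a and from 0 to 3 for the difference. The causes were not tested.

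Of 2 called bands, 4 were called with all reads as library size, 0 with the fewest reads per run, 7 with fragments counted once, 0 after division by the ratio that distance gives and 0 without any single library, where 7 libraries allow no p under 0.0156. Without single libraries the log2 ratio was 0.57 to 0.67 from 10 to 50 kb upstream and -0.63 to -0.56 downstream. Of genes, 0 in the exact test, 8 passed with fragments counted once and 2 (Pax6 and Pax6os1) in 1 edgeR fit over the sums.

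The difference in the share within 1000 kb was 2.61 points with all reads as library size, -2.48 with fragments counted once and -0.62 to 0.29 without single libraries, on both sides of 0.

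Log2 ratios changed sign as follows. With fragments counted once they were -0.27, -0.29 and -0.29 for the Pax6os1 windows from -25 to -10 kb, -0.28 and -0.25 for the upstream bands from 10 to 50 and from 50 to 100 kb, -0.24 for Pax6os1, -0.056 for Rcn1, 0.25 for Wt1, -0.10 for 4930527A07Rik and -0.28 for Gm35946. With all reads as library size they were 0.11 and 0.12 for the upstream bands from 100 to 200 and from 200 to 500 kb, 0.10 for the downstream band from 200 to 500 kb, 0.040 for Immp1l, 0.017 for Dnajc24 and 0.10 for Wt1. After the distance ratio they were 0.078 for the window from 15 to 20 kb, -0.13 for the upstream band from 50 to 100 kb, 0.013 for the downstream band from 200 to 500 kb, -0.046 for 4930527A07Rik and -0.11 for Gm35946. With the fewest reads per run they were -0.036 for the upstream band from 50 to 100 kb and -0.034 for 4930527A07Rik, and with sums over fragments 0.034 for Wt1. Without single libraries the ranges crossed 0 for the upstream bands from 50 to 100 kb (-0.053 to 0.12), from 100 to 200 kb (-0.039 to 0.016) and from 200 to 500 kb (-0.021 to 0.048), for the downstream band from 200 to 500 kb (-0.067 to 0.0091), and for Rcn1 (-0.046 to 0.16), Wt1 (-0.25 to 0.087) and 4930527A07Rik (-0.046 to 0.065). Of all these, the main values passed the test for the Pax6os1 windows and the upstream band from 10 to 50 kb and for no other. The reciprocal contact of the viewpoints kept its sign and its exact p under 0.05 in 10 alternatives, fragments counted once being left aside because every file listed the same 5 or 9 fragments there. The upstream share did so in 9 of 10, at 4.05 points with the fewest reads per run and 0.50 with fragments counted once.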
